A study of Glycine max with 6 samples.

Results

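The binding sites described here are the ChIP-seq peaks of the soybean (Glycine max) proteins GLYMA.06G314400 and GLYMA.13G317000 that lie within 1 Mb of a chromosome end. A peak was a member if its summit, the base with the highest pile of fragments, fell in the first or the last 1000000 bp of a chromosome. All chromosomes except chromosome 13 were used, which gave 19 chromosomes and 38 ends. Of 213988 peaks in all 4 lists of the series, 16366 were members. GLYMA.06G314400 had 4615 member peaks in replicate 1 and 4125 in replicate 2, and GLYMA.13G317000 had 4408 and 3218. The windows made up 4.21% of the length of the 19 chromosomes and held 7.59% and 7.74% of the 2 GLYMA.06G314400 lists and 7.60% and 7.69% of the 2 GLYMA.13G317000 lists.

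Chromatin immunoprecipitation with sequencing (ChIP-seq) recovers crosslinked DNA with an antibody against a protein and maps the fragments. The samples were embryos of the cultivar Williams 82 at the early maturation stage, dissected from seeds of 6 to 7 mm and fixed in 1% formaldehyde. Chromatin from these embryos was precipitated with 3 µg of a peptide antibody against GLYMA.06G314400 (n = 2), with 2 µg of one against GLYMA.13G317000 (n = 2), or kept as unprecipitated input (n = 2, no peak list used here). The labels number 2 samples of each kind and do not say whether they came from separate harvests, so p-values measure only the spread between these lists, which may be technical. All samples shared the cultivar, the stage and the fixation. Embryos mix many cell types, so a site used in few cells and a site used weakly in all cells cannot be told apart. With a read depth not given in the sources used here, a missing peak does not show missing binding.

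Early maturation is the stage at which the soybean embryo starts to store protein and oil. Each soybean chromosome has gene-rich arms that recombine often and a long, gene-poor centre full of repeats, and it ends in arrays of short telomere repeats that are hard to assemble and to map. The outermost stretch of a chromosome sequence is thus a mixture of ordinary arm sequence, with its genes, and of repeated sequence next to the telomere. Peaks can be called only where reads can be placed. With a build not given in the sources used here, bases of these sites and genes beside them are not analysed here, and the end of each chromosome was taken from the peaks. The first end is the one with low coordinates and starts at base 1. The last end is closed by the largest peak end in any of the 4 lists, so its outermost peak lies at the edge by construction.

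Member peaks were about as dense as those of the neighbouring arm and denser than the average of the chromosome. GLYMA.06G314400 had 121 peaks per Mb in the windows in replicate 1, against 59.6 per Mb elsewhere on the same chromosomes, and 109 against 52.2 per Mb in replicate 2. GLYMA.13G317000 had 116 peaks per Mb in the windows in replicate 1, against 56.8 elsewhere, and 84.7 against 40.7 in replicate 2. The density was thus 2.04-fold and 2.08-fold that of the rest in the lists of each protein, in that order of replicates, and it was higher at the ends in 4 of 4 lists and on 19 of 19 chromosomes in each list. The mean difference was 55.3 peaks per Mb (exact sign-flip permutation p = 0.13, two-sided, n = 4 lists). That p is the smallest that 4 lists can give, so no comparison of this kind could pass 0.05. The design held 13 such comparisons, including those between the proteins, and the Benjamini-Hochberg adjusted p was 0.232 for each of those at 0.13. Another 12 were added after the data were examined, 7 against the stretch from 1 to 5 Mb off the ends and 5 within the windows, and over all 25 the adjusted p was 0.184 for each at 0.13.

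The ratio of the windows to the rest was lowest on chromosome 6, at 1.45 to 1.49 in the 4 lists, and highest on chromosome 14, at 2.78 to 3.05. Over the 19 chromosomes it averaged 2.05 ± 0.325 and 2.10 ± 0.354 for GLYMA.06G314400, and 2.06 ± 0.376 and 2.10 ± 0.416 in the GLYMA.13G317000 lists (SD over 19 chromosomes). The rest includes the sparse chromosome centres. The stretch from 1 to 5 Mb off the ends was denser than the windows, with 129 and 113 peaks per Mb for GLYMA.06G314400 and 123 and 89.1 for GLYMA.13G317000. The windows had 5.82 peaks per Mb fewer than that stretch on average, and fewer in 4 of 4 lists (exact sign-flip permutation p = 0.13, two-sided, n = 4 lists). This comparison was chosen after the data were examined. The lower density lay in the outer 200 kb of the windows, with 80.7 and 70.9 peaks per Mb for GLYMA.06G314400 and 76.8 and 57.5 for GLYMA.13G317000. From 200 to 1000 kb the windows held 132 and 118, and 126 and 91.5, more than the stretch from 1 to 5 Mb in each list. The last 50000 bp inside the 1 Mb limit held 276 and 245 GLYMA.06G314400 peaks and 272 and 188 GLYMA.13G317000 peaks, and the next 50000 bp held 254 and 227, and 255 and 184. Density thus took no step at the limit.

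**Figure D1:**
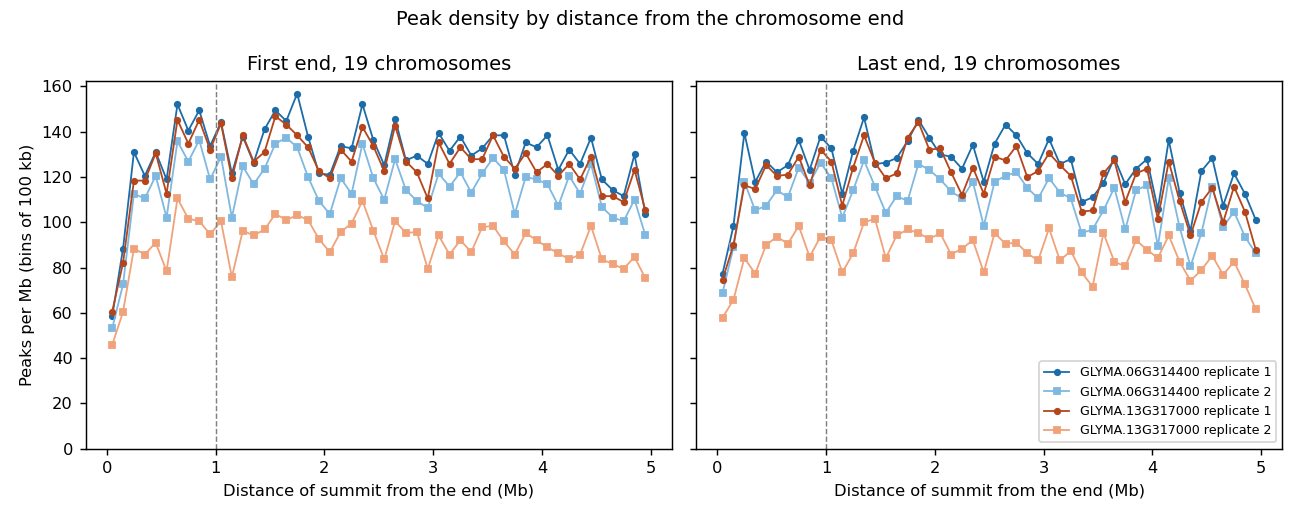
Peaks per Mb in bins of 100 kb, summed over 19 chromosomes, against the distance of the summit from the first end (left) or the last end (right), with 1 line per peak list. The dashed line is the 1 Mb limit. In each list the outermost 2 bins lie below the other bins of the window, and the lines take no step at the limit.

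Within the windows, peaks were sparse next to the end and reached the density of the arm by 200 to 300 kb. In GLYMA.06G314400 replicate 1 the outermost 100 kb held 67.9 peaks per Mb, the next 100 kb held 93.4 and the stretch from 200 to 300 kb held 135, and in replicate 2 the values were 61.1, 80.8 and 115. For GLYMA.13G317000 they were 67.6, 86.1 and 117 in replicate 1, and 51.8, 63.2 and 86.3 in replicate 2. From 900 to 1000 kb the 4 lists had 136, 123, 132 and 94.2 peaks per Mb, in the same order. The outer 500 kb held 2070 and 1820 peaks of GLYMA.06G314400, against 2545 and 2305 in the inner 500 kb. For GLYMA.13G317000 the outer 500 kb held 1959 and 1419, against 2449 and 1799. The difference averaged -458 peaks per list and had this sign in 4 of 4 lists (exact sign-flip permutation p = 0.13, two-sided, n = 4 lists).

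The outer 200 kb also differed from the remaining 800 kb in other ways, a boundary set after the profile was seen. Median peak widths there were 493 and 423 bp for GLYMA.06G314400, against 516 and 438 bp further in, and 407 and 358 bp for GLYMA.13G317000, against 422 and 371 bp. The median rank of fold enrichment, as a percentile within the own list, was 47.7 and 48.1 against 49.0 and 49.3 for GLYMA.06G314400, and 44.4 and 41.6 against 49.9 and 51.0 for GLYMA.13G317000. Peaks in the outer 200 kb were thus fewer, narrower and of lower rank in 4 of 4 lists, with mean differences of -45.2 peaks per Mb, -16.5 bp and -4.37 percentiles (exact sign-flip permutation p = 0.13 for each, two-sided, n = 4 lists). The boundary was set on density, so the sign of the density difference was fixed by that choice and its p gives no support. The values of GLYMA.13G317000 replicate 2 include 15 peaks on chromosome 17 with fold enrichments of 2.34 to 4.91. How far these lower its rank was not tested. The sparse stretch was found at both kinds of end. At first ends the outer 200 kb held 73.4 and 62.9 peaks per Mb for GLYMA.06G314400 and 71.3 and 53.2 for GLYMA.13G317000, and at last ends 87.9 and 78.9, and 82.4 and 61.8. First ends can start with sequence that holds no peak: their outermost summit in any list lay between 2178 bp (chromosome 6) and 115575 bp (chromosome 1) from base 1, with a median of 22192 bp. Counted from the outermost peak instead, the density difference was -35.9 peaks per Mb.

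Over all 19 chromosomes, first and last ends held nearly equal numbers. GLYMA.06G314400 had 2326 and 2070 peaks in the first windows, against 2289 and 2055 in the last. GLYMA.13G317000 had 2242 and 1629 in the first windows, against 2166 and 1589 in the last. The mean difference of 42 peaks per list had the same sign in 4 of 4 lists (exact sign-flip permutation p = 0.13, two-sided, n = 4 lists). It grew to 112.75 peaks when each first window started at its outermost peak, as the last windows do by construction. It turned round in windows of 500000 bp (-30.5 peaks) and with chromosome 13 included (-72.3 peaks), so the total shows no side that stands at every setting. Per chromosome the difference averaged 0.789 to 4 peaks in the lists, with SDs of 27.3 to 36.8 over 19 chromosomes. The first end was higher on 8, 8, 9 and 10 chromosomes, and the last on 11, 10, 9 and 9, in the same order of lists. The sign-flip p above covers agreement between lists, not the spread over chromosomes.

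Single chromosomes had unequal ends, in the same direction with both proteins. The first end held more peaks than the last in 4 of 4 lists on 7 chromosomes (2, 6, 8, 9, 12, 15 and 18), and fewer in 4 of 4 lists on 6 chromosomes (3, 7, 11, 14, 19 and 20). Of these, 3 chromosomes are given as examples chosen after their values were seen. On chromosome 6 the first end held 138 and 122 GLYMA.06G314400 peaks, against 67 and 56 at the last end, and 132 and 100 GLYMA.13G317000 peaks, against 60 and 47. Chromosome 15 was alike, with 140 and 118 GLYMA.06G314400 peaks at the first end against 69 and 57 at the last, and 126 and 91 GLYMA.13G317000 peaks against 65 and 48. The last ends of these 2 chromosomes were the emptiest of all 38 in each list. Chromosome 19 showed the opposite, with 101 and 92 GLYMA.06G314400 peaks at the first end against 153 and 141 at the last, and 93 and 73 GLYMA.13G317000 peaks against 153 and 118. In these 3 chromosomes the replicates of a protein at the first end did not overlap with those at the last. The same held on chromosomes 3 and 9. On all remaining chromosomes the GLYMA.13G317000 replicates of the 2 ends overlapped or met.

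**Figure D2:**
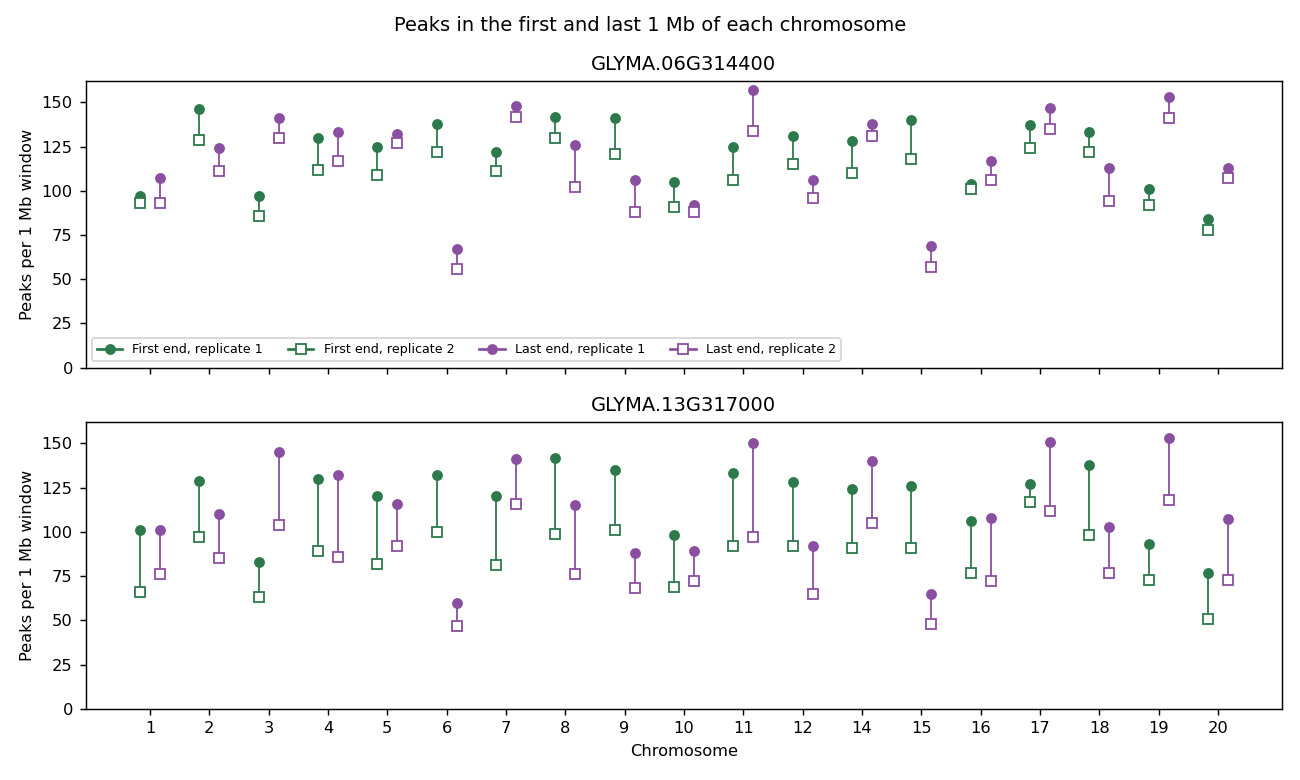
Peaks in the first (green) and the last (purple) 1 Mb window of each of 19 chromosomes, for GLYMA.06G314400 (top) and GLYMA.13G317000 (bottom). Filled circles are replicate 1 and open squares replicate 2, joined by a line. The last ends of chromosomes 6 and 15 lie lowest with both proteins.

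The number of peaks per end was nearly the same property in all 4 lists. Per end, GLYMA.06G314400 had 67 to 157 peaks in replicate 1 (median 126) and 56 to 142 in replicate 2 (median 111), and GLYMA.13G317000 had 60 to 153 (median 120) and 47 to 118 (median 85.5). Across the 38 ends, counts correlated with a Pearson r of 0.970 and a Spearman rho of 0.963 between the GLYMA.06G314400 replicates, and with 0.930 and 0.931 between the GLYMA.13G317000 replicates. Between lists of different proteins r was 0.925 to 0.962. These are descriptions over ends that lie on the same chromosomes, and the labels do not say whether the lists share an input as control.

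GLYMA.06G314400 had more peaks at the ends than GLYMA.13G317000 on average, but the proteins could not be separated. The mean was 4370 ± 346 for GLYMA.06G314400, against 3813 ± 841 for GLYMA.13G317000 (SD, n = 2 each). The difference of 557 peaks was within the spread of the GLYMA.13G317000 replicates (exact two-sided permutation p = 0.667, n = 2 lists each, where 0.33 is the smallest possible). It rests on replicate 2 of GLYMA.13G317000, which had the fewest peaks at 38 of 38 ends. Without that list the difference was -38. The ratio of mean counts, GLYMA.06G314400 over GLYMA.13G317000, was above 1 at 38 of 38 ends and ranged from 1.03 at the first end of chromosome 11 to 1.29 at the last end of chromosome 12, with a median of 1.14. The whole lists differed alike, with a mean of 57046.5 peaks for GLYMA.06G314400 against 49947.5 for GLYMA.13G317000. Outside the windows the means were 48321 and 42182.5. A ratio above 1 was thus not particular to the ends.

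Median peak widths at the ends were within a few bp of those elsewhere. Median widths in the windows were 513 and 435 bp for GLYMA.06G314400, against 512 and 436 bp in the rest, and 421 and 370 bp for GLYMA.13G317000, against 422 and 374 bp. The mean difference was -1.25 bp, and the 4 differences were between -4 and 1 bp (exact sign-flip permutation p = 0.5, two-sided, n = 4 lists). The replicates of either protein differed from each other by more than that. Against the stretch from 1 to 5 Mb off the ends the difference was -4.75 bp, and in windows of 500000 bp it was -3.75 bp against the rest, each with 4 of 4 lists narrower (exact sign-flip permutation p = 0.13 for each, two-sided, n = 4 lists). The middle 50% of the member peaks spanned 382 to 728 bp and 330 to 604 bp for GLYMA.06G314400, and 319 to 576 bp and 292 to 477 bp for GLYMA.13G317000. The widest member peak had 3135 bp and the narrowest 224 bp. Between the proteins, the median width at the ends averaged 474 ± 55.2 bp for GLYMA.06G314400, against 396 ± 36.1 bp for GLYMA.13G317000 (SD, n = 2 each). Their ranges did not overlap, and the difference of 78.5 bp had the smallest p that 2 lists against 2 allow (exact permutation p = 0.33, two-sided). It was 39.5 bp without GLYMA.06G314400 replicate 1, 117.5 bp without its replicate 2, and 53 bp without GLYMA.13G317000 replicate 2. Covered length followed number and width: GLYMA.06G314400 peaks covered 7.31% and 5.40% of the windows, against 3.54% and 2.58% of the rest. GLYMA.13G317000 peaks covered 5.58% and 3.48%, against 2.71% and 1.68%.

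Width differed little between the sides of a chromosome. Median widths at first ends were 511 and 432 bp for GLYMA.06G314400, against 516 and 437 bp at last ends, and 414 and 366 bp for GLYMA.13G317000, against 427 and 373 bp. On 3 chromosomes the first end had the wider peaks in 4 of 4 lists, on 5 the last end had, and on 11 the lists did not share a direction. The last end of chromosome 7 had the widest median of all 38 ends in GLYMA.06G314400 replicate 1, at 602 bp. It had 492 bp in replicate 2, and 482 and 372 bp in the GLYMA.13G317000 lists, whose medians over the ends were 418 and 369 bp.

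Fold enrichment, the authors' ratio of the fragment pile at the summit to its local background, was at the ends much like elsewhere. Its median was 5.82 and 7.09 in the GLYMA.06G314400 windows, against 5.98 and 7.17 in the rest, and 5.45 and 5.37 in the GLYMA.13G317000 windows, against 5.54 and 5.40. As percentile rank within the list, member peaks had medians of 48.8 and 49.3 for GLYMA.06G314400, against 50.1 and 49.95 elsewhere, and of 49.0 and 49.9 for GLYMA.13G317000, against 50.01 and 50.2. The rank was lower at the ends in 4 of 4 lists, with a mean difference of -0.804 percentiles (exact sign-flip permutation p = 0.13, two-sided, n = 4 lists). The strongest 10% of each list made up 10.4% and 9.60% of the GLYMA.06G314400 peaks in the windows, against 9.93% and 9.96% of those in the rest, and 9.75% and 9.32% of the GLYMA.13G317000 peaks, against 9.97% and 10.1%.

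Replicates recurred at the ends as often as in the whole lists. A peak was counted as recurring if a peak of the other replicate overlapped it by at least 50% of the shorter peak. Of the GLYMA.06G314400 replicate 1 peaks in the windows, 3745 of 4615 recurred, or 81.1% (Wilson 95% interval 80.0 to 82.3%), where 80.5% of the whole list did. For replicate 2 it was 3892 of 4125, or 94.4% (93.6 to 95.02%), with 94.9% in the whole list. Of the GLYMA.13G317000 replicate 1 peaks 2927 of 4408 recurred, or 66.4% (65.0 to 67.8%), with 65.9% in the whole list, and of the replicate 2 peaks 3009 of 3218, or 93.5% (92.6 to 94.3%), with 93.3% in the whole list. These intervals cover counting error only. Each share in the windows is near its background. Against the rest of the same chromosomes the shares differed by between -0.571 and 0.626 percentage points, 0.159 on average, and they were higher in 2 of 4 lists (exact sign-flip permutation p = 0.5, two-sided, n = 4 lists).

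Longer lists have lower shares, so the 2 directions within a protein differ by construction. Each protein has 1 pair of replicates, so its recurrence has no replicate spread and the proteins were not compared in it. Single ends ranged from 72.6% to 87.8% in GLYMA.06G314400 replicate 1 and from 57.6% to 75% in GLYMA.13G317000 replicate 1. In GLYMA.06G314400 replicate 1 the last end of chromosome 18 had the lowest share and the last end of chromosome 7 the highest. First ends recurred with 80.6% and 94.2% for GLYMA.06G314400, against 81.7% and 94.5% at last ends, and with 66.1% and 93.2% for GLYMA.13G317000, against 66.8% and 93.8%.

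In the outer 200 kb recurrence was lower in each list, by most in GLYMA.13G317000 replicate 2. It was 80.6% and 93.5% for GLYMA.06G314400, against 81.2% and 94.5% further in, and 62.8% and 85.4% for GLYMA.13G317000, against 66.9% and 94.8%. The mean difference was -3.79 percentage points with 4 of 4 lists lower (exact sign-flip permutation p = 0.13, two-sided, n = 4 lists). It was -6.77 points when a list of GLYMA.06G314400 was left out and -0.81 points when a list of GLYMA.13G317000 was left out, since the remaining list of that protein then has no partner. At a q of 1e-05 or less it was -2.60 points, with 3 of 4 lists lower. The 4 values are not independent, since both directions of a protein count largely the same overlaps. Of the 437 peaks of GLYMA.13G317000 replicate 2 in the outer 200 kb, 64 did not recur, and 16 of these lay at the first end of chromosome 17. Without that end the share was 88.4%.

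That end, singled out after its values were seen, held a run of weak peaks in 1 list. From 100 to 150 kb at the first end of chromosome 17, GLYMA.13G317000 replicate 2 had 15 peaks with fold enrichments of 2.34 to 4.91, while GLYMA.13G317000 replicate 1 had 1 peak, with 3.11, and both GLYMA.06G314400 lists had 0. The 14 of these that no other list overlapped ran from 111351 to 148527. No other bin of 100 kb in the windows had more than 7 loci of a single list. That next bin, the outermost 100 kb of the first end of chromosome 6, also belonged to GLYMA.13G317000 replicate 2, with fold enrichments of 2.70 to 3.85 from 80439 to 89721. GLYMA.06G314400 replicate 1 had 7 bins with at least 5 such loci, the fullest with 6 at 200 to 300 kb from the last end of chromosome 3, and GLYMA.13G317000 replicate 2 had 3. The last of these, of 5 such loci, with 2.72 to 3.26, lay from 56575 to 94137 at the first end of chromosome 14. Per bin the average was 0.461 single-list loci for GLYMA.13G317000 replicate 2, 0.658 for its replicate 1, and 1.27 and 0.424 for GLYMA.06G314400 replicates 1 and 2.

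Over the full 1 Mb, peaks of the proteins overlapped nearly as often as over the whole lists. Of the GLYMA.06G314400 replicate 1 peaks in the windows, 81.7% overlapped a peak of GLYMA.13G317000 replicate 1 (82.2% in the whole list) and 57.9% one of its replicate 2 (58.2%). Of the GLYMA.06G314400 replicate 2 peaks these shares were 86.7% (87.9%) and 65.5% (66.5%). In the other direction, 88.7% of the GLYMA.13G317000 replicate 1 peaks overlapped a peak of GLYMA.06G314400 replicate 1 (89.1%) and 81.2% one of its replicate 2 (80.7%), and for GLYMA.13G317000 replicate 2 it was 87.9% (88.5%) and 86.3% (86.5%). Each share in the windows is near its background. The mean over partners was lower at the ends than in the rest in 4 of 4 lists, with a mean difference of -0.557 percentage points (exact sign-flip permutation p = 0.13, two-sided, n = 4 lists), and of -1.33 points in windows of 500000 bp. In the outer 200 kb the share was 67.8% and 72.7% for GLYMA.06G314400, against 70.1% and 76.6% further in, and 81.8% and 79.3% for GLYMA.13G317000, against 85.5% and 88.3%. It was lower there in 4 of 4 lists, with a mean difference of -4.72 points (exact sign-flip permutation p = 0.13, two-sided, n = 4 lists). In both tests of overlap between the proteins the lists share overlaps, so the 4 values are not independent. The 437 outer peaks of GLYMA.13G317000 replicate 2 include 14 at the first end of chromosome 17 that no other list overlapped. How far these lower its share was not tested. Summits of overlapping peaks lay a median of 20 to 23 bp apart in the windows and a median of 20 to 23 bp apart in the rest, for replicates and for lists of different proteins.

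**Figure D3:**
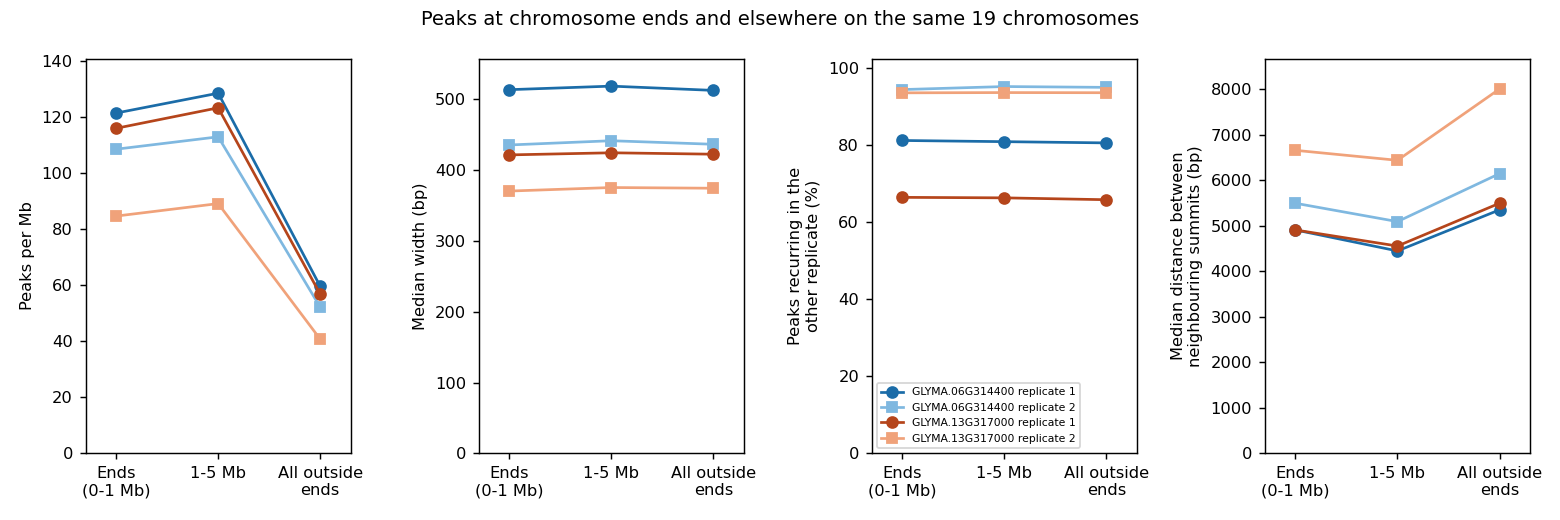
Peaks per Mb, median width, share of peaks recurring in the other replicate and median distance between neighbouring summits, for peaks in the windows, from 1 to 5 Mb off the ends, and anywhere outside the windows on the same 19 chromosomes. Each line joins the values of 1 list. Density and spacing change between the groups, and width and recurrence stay level in each list.

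Neighbouring peaks were closer at the ends than over the rest of the chromosome. The median distance between neighbouring summits was 4906 and 5492 bp in the windows for GLYMA.06G314400, against 5347 and 6142 bp in the rest, and 4906 and 6654 bp for GLYMA.13G317000, against 5492 and 8001 bp. The difference averaged -756 bp and had this sign in 4 of 4 lists (exact sign-flip permutation p = 0.13, two-sided, n = 4 lists). Against the stretch from 1 to 5 Mb off the ends the sign turned, with windows wider spaced by 359 bp on average in 4 of 4 lists. Distances over the whole rest, with its sparse centres, were more uneven than at the ends. The median was 0.612 and 0.613 of the mean distance in the windows for GLYMA.06G314400, against 0.319 and 0.320 in the rest, and 0.583 and 0.579 for GLYMA.13G317000, against 0.312 and 0.326. From 1 to 5 Mb off the ends it was 0.574 and 0.578 for GLYMA.06G314400 and 0.565 and 0.578 for GLYMA.13G317000, close to the windows. The longest distances were 136564 and 131074 bp in the windows for GLYMA.06G314400, against 1871741 and 1871722 bp in the rest, and 125782 and 131080 bp for GLYMA.13G317000, against 1898550 and 2845048 bp.

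At close range the ends and the rest were nearly alike. A distance of 2000 bp or less made up 23.6% and 22.0% of the distances in the windows for GLYMA.06G314400, against 22.7% and 21.3% in the rest, and 24.2% and 20.2% for GLYMA.13G317000, against 23.9% and 18.0%. The share was 1.03 percentage points higher at the ends on average and higher in 4 of 4 lists (exact sign-flip permutation p = 0.13, two-sided, n = 4 lists), while the density of peaks was 2-fold that of the rest. It was 0.625 points without GLYMA.13G317000 replicate 2, and 0.272 points in windows of 500000 bp. Against the stretch from 1 to 5 Mb off the ends the difference was -1.10 points, with 3 of 4 lists lower. First ends had median distances of 4813 and 5394 bp for GLYMA.06G314400, against 5046 and 5567 bp at last ends, and of 4841 and 6470 bp for GLYMA.13G317000, against 4962 and 6828 bp. Between the proteins the median distance averaged 5199 ± 414 bp for GLYMA.06G314400, against 5780 ± 1236 bp for GLYMA.13G317000 (SD, n = 2 each), and the lists overlapped (exact two-sided permutation p = 1.0).

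Merging overlapping peaks of the 4 lists gave 5430 loci in the windows, of which 2589 (47.7%) were shared by all 4. Over all sequences in the files 48.1% of loci were, a share near that of the windows, and 48.2% of those elsewhere on the 19 chromosomes. Loci of both GLYMA.06G314400 lists alone were 328 (6.04%, against 5.65% in the rest), and loci of both GLYMA.13G317000 lists alone were 174 (3.20%, against 2.76%). A peak in 1 list only was found at 1070 loci (19.7%, against 19.2%). Loci in all 4 lists had a median width of 702 bp at the ends, against 692 bp in the rest, and the highest summits of the 4 lists spanned a median of 41 bp, against 42 bp.

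These loci in all 4 lists numbered 68.1 ± 13.6 per end (SD over 38 ends), 68.4 ± 11.9 at first ends and 67.9 ± 15.4 at last ends (SD over 19 ends each). The fullest ends were the last end of chromosome 7 with 96 and the last end of chromosome 17 with 89. The emptiest were the last end of chromosome 6 with 42 and the first end of chromosome 20 with 44, a number that the last end of chromosome 15 shared. By ratio, chromosome 6 had the most unequal ends, with 73 at the first and 42 at the last, followed by chromosome 15 (75 and 44), chromosome 9 (84 and 54) and chromosome 7 (63 and 96), which had the largest difference in number. These 4 chromosomes had a ratio of at least 1.5 between their ends, and 8 had one under 1.2. Chromosome 10 had 56 at each end.

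**Figure D4:**
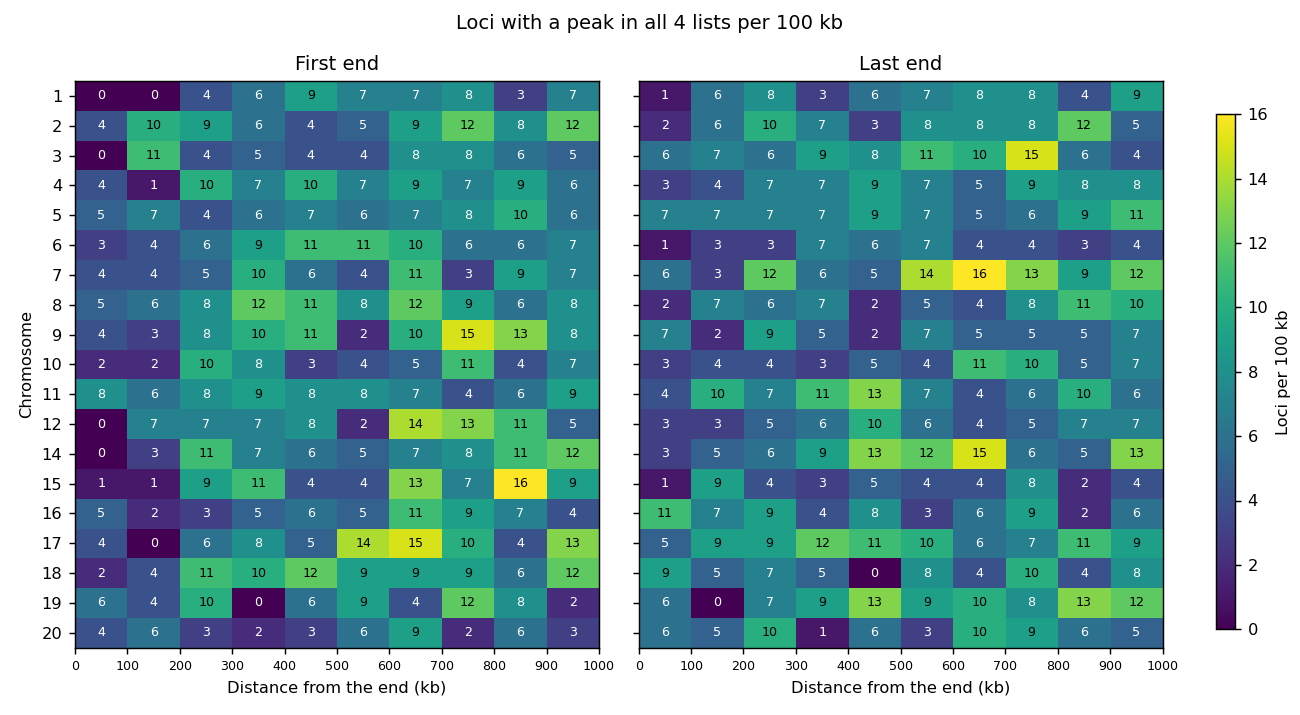
Loci shared by all 4 lists in each 100 kb of the first (left) and last (right) ends of 19 chromosomes, by distance from the end. Bins without such a locus lie mostly within 200 kb of an end, and the fullest bins, with 16 loci, lie at 600 to 700 kb (last end of chromosome 7) and 800 to 900 kb (first end of chromosome 15).

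In bins of 100 kb the loci in all 4 lists averaged 3.87 ± 2.61 in the outermost bin, 4.82 ± 2.87 in the second and 7.16 ± 2.50 in the third (SD over 38 ends). Of 380 bins, 9 held no such locus, and 7 of these were among the outermost 2 bins of an end. The fullest bins held 16 and lay 600 to 700 kb from the last end of chromosome 7, with 24 and 23 GLYMA.06G314400 peaks and 22 and 16 GLYMA.13G317000 peaks, and 800 to 900 kb from the first end of chromosome 15, with 26 and 25, and 24 and 20. A tie of 4 bins with 15 loci followed: 700 to 800 kb from the last end of chromosome 3 and the first end of chromosome 9, and 600 to 700 kb from the last end of chromosome 14 and the first end of chromosome 17.

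Between neighbouring summits of any list, the longest stretch without a further summit was 45161 bp per end at the median. The 3 longest such stretches between summits were at last ends. They leave out the run from base 1 to the outermost summit of a first end, which was longer on chromosome 1, at 115575 bp. On chromosome 18 no summit lay between 57462188 and 57570095, a distance of 107907 bp that starts 404816 bp from the end. On chromosomes 15 and 6 the stretch reached nearly to the end: 104125 bp from 51600557 to 51704682 on chromosome 15 and 95454 bp from 51310285 to 51405739 on chromosome 6. These last ends of chromosomes 6 and 15 also held the fewest peaks.

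The outermost locus shared by all 4 lists was a median of 31636 bp from base 1 at first ends. The nearest were on chromosome 16, from 13557 to 14151, chromosome 7, from 13875 to 14435, and chromosome 6, from 16313 to 17138. The first 2 lay near or below the median fold enrichment of the windows in most lists, with fold enrichments of 5.86 and 5.15 for GLYMA.06G314400 and 7.85 and 5.25 for GLYMA.13G317000 on chromosome 16, and of 5.69 and 5.498, and 5.36 and 3.05, on chromosome 7. The locus on chromosome 6 was far above those medians, with 32.4 and 38.2 for GLYMA.06G314400 and 31.3 and 23.3 for GLYMA.13G317000. The farthest were on chromosome 1, from 205122 to 205881, with 20.5 and 16.3, and 14.7 and 10.3, on chromosome 12, from 122954 to 123463, with 6.75 and 10.7, and 7.25 and 5.31, and on chromosome 14, from 102203 to 102907, with 13.6 and 18.9, and 13.3 and 9.72.

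The 5 strongest loci of each protein at the ends also had high fold enrichments with the other protein. No locus was in both sets, but the order of the sets changed between replicates of GLYMA.06G314400. Equally strong loci outside the windows were not examined for enrichment with the other protein. Ranked by whichever of its replicates had less fold enrichment, the first GLYMA.06G314400 locus lay on chromosome 19 from 49805567 to 49806813, 937594 bp from the last end, with 45.1 and 44.7 for GLYMA.06G314400 and 41.9 and 26.1 for GLYMA.13G317000. A pair of loci on chromosome 14 followed. The one from 771282 to 773417 had 44.2 and 40.6 for GLYMA.06G314400 and 40.7 and 25.2 for GLYMA.13G317000, and the one from 706916 to 708584 had 40.2 and 44.1, and 30.1 and 24.4. On chromosome 7 the locus from 43771221 to 43772404 had 39.6 and 49.3, and 33.5 and 24.6. On chromosome 12 the locus from 39562389 to 39564199 had 39.1 and 49.7, and 31.4 and 26.3. The highest summits of the 4 lists spanned 21 to 64 bp in these 5 loci.

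For GLYMA.13G317000 the first locus lay on chromosome 12 from 39597129 to 39598435, with 34.0 and 36.5 for GLYMA.13G317000 and 33.7 and 66.2 for GLYMA.06G314400. On chromosome 18 the locus from 968758 to 971006 had 33.6 and 33.8 for GLYMA.13G317000, and 37.7 and 57.6 for GLYMA.06G314400. On chromosome 3 the locus from 45480923 to 45482411 had 35.4 and 33.1, and 36.3 and 58.6. On chromosome 7 the locus from 401405 to 402602 had 34.8 and 33.0, and 38.6 and 55.1, and on chromosome 4 the locus from 778594 to 779631 had 32.6 and 36.0, and 31.9 and 54.9. Fold enrichments of different lists are given side by side and were not compared. Within GLYMA.06G314400 replicate 2 the GLYMA.13G317000 set had 54.9 to 66.2, above the 40.6 to 49.7 of the GLYMA.06G314400 set. Within its replicate 1 the order was reversed, with 31.9 to 38.6 against 39.1 to 45.1. Within GLYMA.13G317000 replicate 2 its own set had 33.0 to 36.5 against 24.4 to 26.3, and within replicate 1 the sets overlapped. The sets thus do not mark loci particular to a protein.

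Among the 1000 strongest sites the ends' share was slightly below their share of all sites for both proteins. Among loci with a peak in both replicates, 8.28% of the 45176 GLYMA.06G314400 loci and 8.28% of the 34410 GLYMA.13G317000 loci were at the ends. Of the 1000 highest in that ranking, 7.10% and 7.30% were, of the 100 highest 1 and 7 loci, and of the 10 highest 0 for each protein. The best end locus ranked 17 for GLYMA.06G314400 and 25 for GLYMA.13G317000. These counts are descriptions, and no test was made of them.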

How the data were processed

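ChIP-seq of early maturation soybean embryos gave 4 deposited peak lists, 1 per replicate, so replicates were not pooled. The submitters' processing notes list Bowtie 0.12.7 and MACS2. Build, controls, read depth and treatment of duplicate or multiply mapped reads, all not given in the sources used here, bear on whether repeated sequence near telomeres can hold a peak. Coordinates are 1-based. Per the narrowPeak layout, the authors deposited for each peak a fold enrichment (a ratio), a −log10 p and a −log10 q, whose smallest value was 2.00, and a whole-number score derived from the −log10 q. No list held overlapping peaks.

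Summits, widths, distances and overlaps were computed from the lists with Python 3.11.15, numpy 2.4.6, pandas 2.3.3 and scipy 1.17.1, and figures drawn with matplotlib 3.10.9. Overlap, window and merging steps were tested on simulated intervals. The list was the unit of replication. For recurrence and for overlap between the proteins the lists share overlaps, so they are not independent units there. In the other measures the lists also hold many of the same loci, since 47.7% of the loci in the windows had a peak in all 4. Agreement of 4 of 4 lists is thus not agreement of 4 separate sets of sites. Windows and rest were compared by exact sign-flip permutation over the 4 lists, and the proteins by exact permutation of 2 lists against 2. The planned comparison of recurrence between the proteins is not reported, since each has 1 replicate pair. The loci and ends named were the 5 strongest loci per protein, the 2 fullest and 2 emptiest ends, the shared loci of the 3 first ends with the nearest and the 3 with the farthest one, and the 3 fullest bins. Others were chosen after their values were seen. The members and measures were chosen with earlier results of these data known. Alternatives covered the q limit (1e-05), window size, the start of the first window, chromosome 13, the overlap rule, weighting by fold enrichment, the replicate block and omission of lists. Peptides of the antibodies, sequences and genes are not analysed here.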

Additional observations from a re-analysis of the deposited data

How the results depend on the processing

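Of 157 alternative values for 16 results, 144 kept their direction and side of the threshold, 11 changed sign and 2 counts moved by over 1.5 times. No comparison of this design could pass 0.05, so the tests say nothing about stability. In windows of 500000 bp, recurrence at the ends minus the rest was -0.859 percentage points and first minus last ends -30.5 peaks, and 1129 loci held a peak in all 4 lists, against 5491 in windows of 2000000 bp. Including chromosome 13, with 23, 21, 20 and 13 peaks at its first and 156, 136, 140 and 102 at its last end, gave -72.3 peaks for first minus last ends, and starting each first window at its outermost peak gave 112.75, against 42 as reported. Matching summits within 100 bp gave -0.0561 points for recurrence, and weighting the rest to the same fold enrichment gave 1 bp for width. Taking only 1 to 5 Mb off the ends as the rest, chosen after the data were examined, gave -5.82 peaks per Mb, -0.104 points for recurrence, 359 bp for spacing and -1.10 points for close neighbours. The cause of these changes was not tested. Omitting single lists gave -38 to 1152 for the difference in peak number between the proteins, 39.5 to 117.5 bp for width and -1455 to 293.5 bp for spacing, number and spacing changing sign without GLYMA.13G317000 replicate 2. It gave 2602 to 3401 loci held by every remaining list. With the replicate number as a block the protein differences were 557 peaks, 78.5 bp in width and -581 bp in spacing (exact sign-flip p of 0.5 for the first 2 and 1.0 for the last, the smallest possible being 0.5), and overlap with the same-numbered list of the other protein was -0.620 points at the ends against the rest. Differences between replicate numbers across the 38 ends correlated at 0.147 between the proteins, and the labels do not say what the numbers share. Depth is unknown, so differences between lists in number and width cannot be told apart from it.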
